A study of Homo sapiens with 11 samples.

Results

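Numbered zinc finger genes, those whose symbol is ZNF followed by digits alone, were followed in 2 cancer cell lines that received a mimic of miR-365a-3p. Rows were selected on symbol and level: the symbol had this form and the mean of the 11 deposited values exceeded 8 on the log2 scale. These 11 values include the arrays compared below, so the level of a member is a description and not a result. Of 487 numbered rows, 85 passed, out of 31325 rows in all. The share that passed was 17.5% of the numbered rows and 22% of the other rows, so 6795 other rows with a mean above 8 served for comparison. The symbol, not the protein, defined the set, and 9 of the 85 have since been renamed, among them ZNF364 (now RNF115), ZNF828 (now CHAMP1) and ZNF259 (now ZPR1). ZNF185 keeps its symbol but is a LIM domain protein.

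The arrays were Illumina HumanHT-12 BeadChips with biotin-labelled cRNA made from total RNA, in 4 groups. MDA-MB-231, a basal-like breast cancer line, was transfected with a control miRNA (3 arrays) or with miR-365a-3p (3 arrays). SKOV3, an ovarian cancer line, was transfected with a control miRNA (2 arrays) or with miR-365a-3p (3 arrays). The sample labels gave 48 h of treatment in all groups and the series design gave 24 h, and the study's methods call the ovarian line SKOV3.ip1. Nothing said that replicates came from separate cultures, so the p-values measure only the spread between these arrays, which may be technical.

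Most numbered zinc finger genes encode C2H2 zinc finger proteins, in which short fingers held by a zinc ion read DNA bases in a row. Many also carry a KRAB domain, which recruits TRIM28 (KAP1), the histone methyltransferase SETDB1 and HP1 proteins to silence DNA, transposable elements included. Genes of the KRAB class lie in clusters of near-identical copies, chiefly on chromosome 19. A microRNA lowers mRNAs that pair with its seed, bases 2 to 8, so the mature sequence of the mimic is given here, with the seed in capitals, from RefSeq (GRCh38.p14, chr16:14309340-14309361, + strand). The same mature sequence is also encoded as miR-365b-3p at chr17:31575478-31575499, + strand.
hsa-miR-365a-3p: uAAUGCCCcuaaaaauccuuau
An mRNA site that pairs with the whole seed reads GGGCAUU. The zinc finger mRNAs were not searched for it here.

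Within groups, arrays correlated at Pearson r = 0.972 to 0.996 over all rows. VIM read 13.79 in the MDA-MB-231 controls and 13.70 in the SKOV3 controls, with CDH1 at 7.27 and 7.43 and ESR1 at 7.28 and 8.83 on the log2 scale. ERBB2, amplified in SKOV3, read 7.61 and 10.86. The other SKOV3 markers, PAX8 (7.40 and 8.18) and KRT7 (7.95 and 8.22), stood above the median row, 7.38, in SKOV3 but far below ERBB2. The deposited columns did not share a distribution: the 75th percentile of an array was lower by 0.278 on average with miR-365a-3p (exact permutation within lines, 200 arrangements, two-sided p = 0.005, the smallest this design allows). Values were therefore quantile normalized before the fit, and the counts of the family, with gene values where a call turns on this step, are also given on the deposited values.

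Most members lay close to the cut. The median of their means was 8.41, 64 had a mean of 8 to 9, 13 of 9 to 10 and 8 above 10. ZNF187 (8.010) and ZNF256 (8.015) were just inside the cut, ZNF362 (7.999) and ZNF576 (also 7.999 after rounding) just outside. In 46 members all 4 group means of the deposited values exceeded 8. In 23 a control mean exceeded 8 and the miR-365a-3p mean of that line did not, in 4 the reverse held, in 2 only MDA-MB-231 and in 10 only SKOV3 groups exceeded 8, so part of the set passed through the groups in which it was high. The highest was ZNF674, a KRAB gene of the X chromosome, with a mean of 13.48, followed by ZNF486 (12.17) and ZNF430 (11.38), both on chromosome 19. These levels compare probes of different genes and are not a ranking of transcript abundance.

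Taken as a family, the 85 genes moved in both directions. In MDA-MB-231, 23 (27.1%) were called lower and 25 (29.4%) higher with miR-365a-3p (limma, adjusted p under 0.05), against a background of 11.7% and 14.4% of all rows and of 26.7% and 38.5% of the other rows with a mean above 8. In SKOV3, 20 (23.5%) were lower and 14 (16.5%) higher, against 7.11% and 7.25% of all rows and 15.7% and 23.2% of the other rows above 8. The share called exceeded that of all rows, most of which lie at the floor, and lay close to that of rows of like level, with fewer higher calls in both lines and more lower calls in SKOV3. The median difference was 0.08 in MDA-MB-231 and 0.01 in SKOV3 (log2), beside 0.15 and 0.15 for the other rows above 8. In bulk RNA a change in every cell and a change in part of the cells cannot be told apart.

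The balance of the family depended on scaling. On the deposited values 36 members were lower and 8 higher in MDA-MB-231 and 27 lower and 3 higher in SKOV3, with medians of -0.24 and -0.18, beside -0.06 and -0.01 for the other rows above 8. The background on that scale was 17.9% lower and 7.26% higher of all rows in MDA-MB-231 and 14% and 3.83% in SKOV3, and 33.8% and 26%, then 19.9% and 15.2%, of the other rows above 8. With arrays centred on their medians the counts were 36 and 10, then 25 and 4. The background there was 15.6% lower and 10.8% higher of all rows, then 11.6% and 5.52%. Of the other rows above 8 it was 32.9% and 28.1%, then 18.6% and 17.3%. Under all 4 scalings the members' median was below that of the other rows with a mean above 8, but its sign was not fixed. The counts also rested on single arrays: without MDA-MB-231 control replicate 3, 15 members were lower in that line, and without SKOV3 control replicate 1 or 2, 5 or 4 were higher in SKOV3 and, without replicate 2, 10 were lower.

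**Figure D1:**
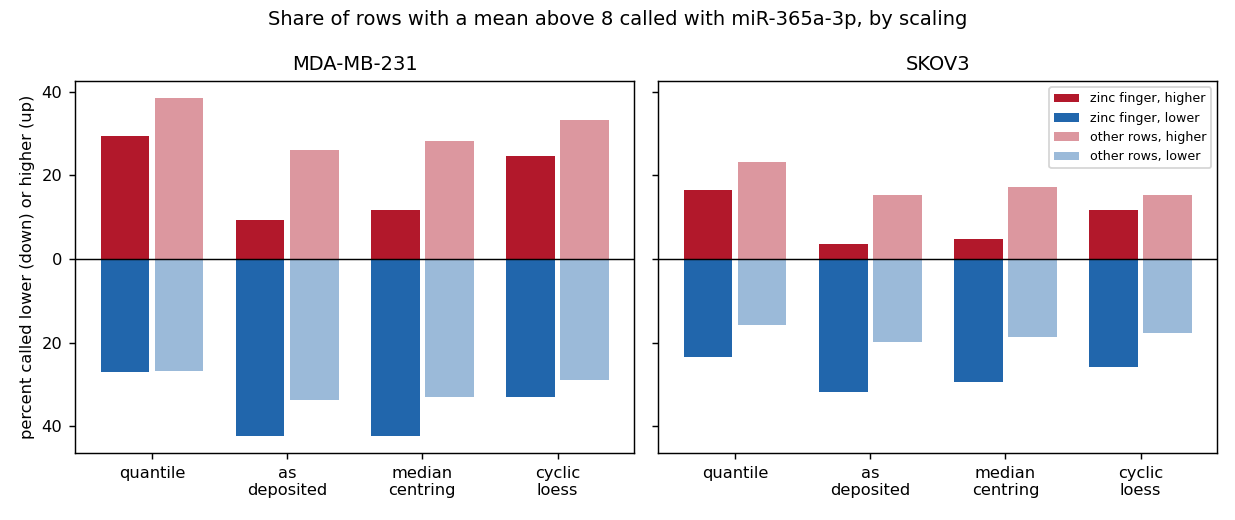
Percent of rows with a mean above 8 called higher (bars up from 0) or lower (bars down from 0) with miR-365a-3p in each cell line, for the 85 numbered zinc finger rows (dark) and the 6795 other rows (pale), under 4 scalings of the arrays. In MDA-MB-231 the zinc finger rows called higher go from 29.4% after quantile normalization to 9.41% on the deposited values, and the rows called lower from 27.1% to 42.4%.

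Members of high level leaned towards falls under every scaling tried. Pooling the members with a mean above 9 was a choice made after the values were seen. Of the 21 members with a mean above 9, 12 were lower and 3 higher in MDA-MB-231, and 11 lower and 3 higher in SKOV3, with medians of -0.86 and -1.53. The 3380 other rows with a mean above 9 had medians above 0, 0.26 and 0.21 and 23.2% of them were lower and 40.7% higher in MDA-MB-231 and 12.8% lower and 25.7% higher in SKOV3. Among the 8 members with a mean above 10 none was called higher, 7 were lower in MDA-MB-231 and 6 in SKOV3, and the medians were -1.15 and -1.70, beside 0.26 and 0.24 for the 1726 other rows of that level. Of those rows 21.7% were lower and 40% higher in MDA-MB-231 and 11.8% lower and 25.3% higher in SKOV3. The 13 members of 9 to 10 had medians of -0.13 and -0.38, beside 0.24 and 0.18. The 64 members of 8 to 9 had medians of 0.19 and 0.10, beside 0.04 and 0.09 for the 3415 other rows of that level, but the medians of this band were below 0 on the deposited values (-0.16 and -0.13) and after median centring (-0.13 and -0.097). The medians of the members above 9 were also negative on the deposited values (-1.01 and -1.44), after median centring (-0.98 and -1.40) and after cyclic loess (-0.93 and -1.52). The count of 3 higher members above 9 in SKOV3 was 1 without SKOV3 control replicate 1 or 2.

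**Figure D2:**
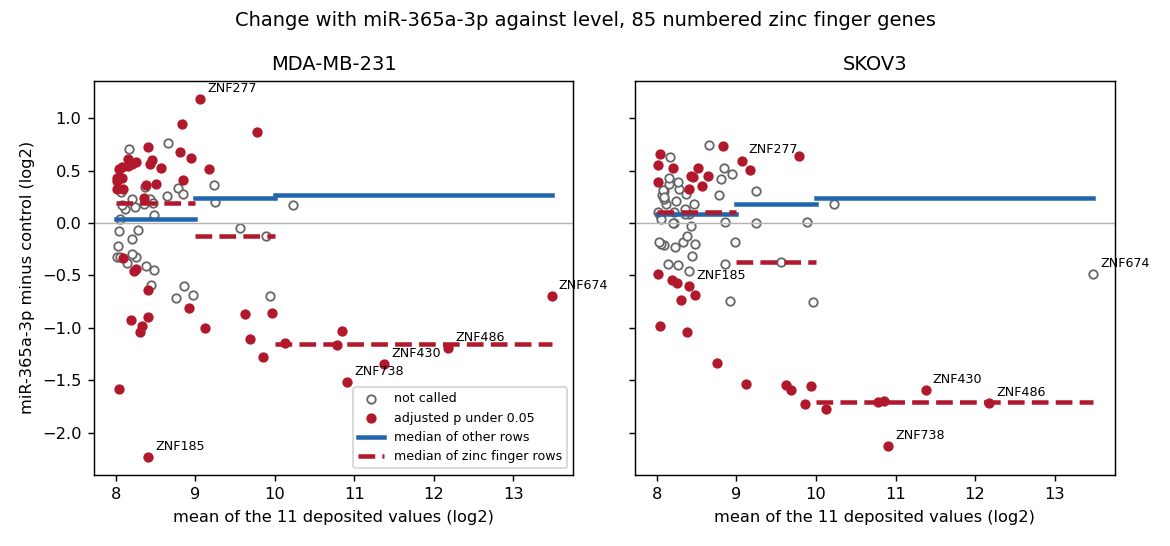
Log2 difference of miR-365a-3p minus control against the mean of the 11 deposited values for the 85 genes, in MDA-MB-231 (left) and SKOV3 (right). Filled points were called at an adjusted p under 0.05, dashed lines give the median of the zinc finger rows and solid lines that of the other rows in each band of level. Above 10, the zinc finger medians lie at -1.15 and -1.70 and those of the other rows at 0.26 and 0.24.

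Gene by gene, the difference had the same sign in 76 of the 85 genes, none was called in opposite directions and 30 were called in neither line. Called lower in both lines were 14 (16.5%), against 5.39% of all rows and 13.8% of the other rows above 8. Called higher in both were 13 (15.3%), against 5.76% and 20.9%. Over all 85 genes, every miR-365a-3p array lay below every control array in both lines in 25 (29.4%) and above in 27 (31.8%), against 10.3% and 13.3% of all rows and 22.6% and 35.7% of the other rows above 8. Of the 14 falls, 10 had a mean above 9 and 8 lay on chromosome 19, whereas 3 of the 13 rises had a mean above 9 and 4 lay on chromosome 19. Among all 85 members, 21 had a mean above 9 and 36 (42.4%) lay on chromosome 19. Among the other rows above 8, 396 of 936 shared falls and 784 of 1418 shared rises had a mean above 9. All 14 falls were also called in both lines on the deposited values, and 2 of the 13 rises were, although all 13 remained above 0 there.

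**Figure D3:**
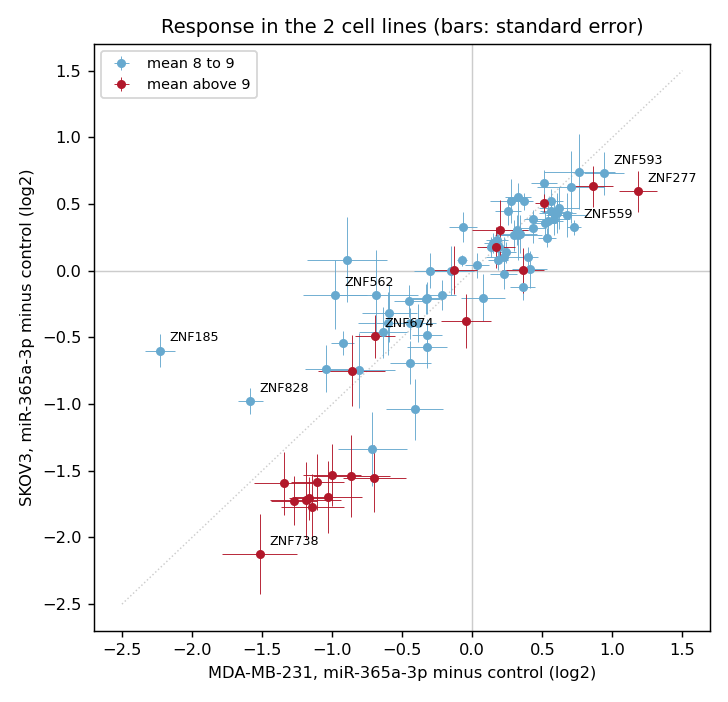
Log2 difference with miR-365a-3p in SKOV3 against that in MDA-MB-231 for the 85 genes, with the standard error of each as a bar and the line of equal response dotted. The genes with a mean above 9 include the group of falls from -1.52 to -0.86 in MDA-MB-231 and from -2.12 to -1.53 in SKOV3, and ZNF185 stands apart with -2.23 in MDA-MB-231 and -0.60 in SKOV3.

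The largest shared fall was that of ZNF738, a zinc finger gene of chromosome 19. It read 11.32, 11.64 and 12.19 in the MDA-MB-231 control arrays, 10.27, 10.02 and 10.31 in the MDA-MB-231 miR-365a-3p arrays, 11.94 and 12.54 in the SKOV3 control arrays and 9.70, 10.46 and 10.19 in the SKOV3 miR-365a-3p arrays. In both lines the control and mimic arrays did not overlap. Genes named as the 8 largest shared falls and the 8 largest shared rises were required to show this. ZNF738 fell, with a difference of -1.52 ± 0.27 (log2, with its SE) in MDA-MB-231 (adjusted p = 0.0031) and of -2.12 ± 0.30 in SKOV3 (adjusted p = 0.00201). ZNF69, a KRAB gene on another part of the same chromosome, read 10.25, 10.66 and 10.93 in the MDA-MB-231 control arrays, 9.47, 9.23 and 9.33 in the MDA-MB-231 miR-365a-3p arrays, 10.70 and 11.01 in the SKOV3 control arrays and 9.25, 9.04 and 9.09 in the SKOV3 miR-365a-3p arrays. Its groups did not overlap either. ZNF69 fell, with a difference of -1.27 ± 0.16 in MDA-MB-231 (adjusted p = 0.000601) and of -1.72 ± 0.18 in SKOV3 (adjusted p = 0.000498).

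ZNF430 and ZNF486, KRAB genes that lie near ZNF738, were among the 3 members of highest mean. ZNF430 read 11.86, 11.95 and 12.53 in the MDA-MB-231 control arrays, 10.76, 10.59 and 10.96 in the MDA-MB-231 miR-365a-3p arrays, 12.21 and 12.51 in the SKOV3 control arrays and 10.40, 11.01 and 10.89 in the SKOV3 miR-365a-3p arrays. ZNF486 read 12.30, 12.75 and 13.37 in the MDA-MB-231 control arrays, 11.59, 11.45 and 11.81 in the MDA-MB-231 miR-365a-3p arrays, 13.18 and 13.32 in the SKOV3 control arrays and 11.20, 11.74 and 11.66 in the SKOV3 miR-365a-3p arrays. In both genes the highest miR-365a-3p array was still below the lowest control array of its line. ZNF430 fell, with a difference of -1.34 ± 0.21 (adjusted p = 0.00179) and -1.59 ± 0.24 (adjusted p = 0.00273), in MDA-MB-231 and SKOV3 in that order. ZNF486 fell, with a difference of -1.19 ± 0.25 (adjusted p = 0.00781) and -1.72 ± 0.28 (adjusted p = 0.0044).

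Chromosome 19 genes ZNF549 and ZNF14 and the chromosome 17 gene ZNF652 followed the same course. ZNF652, a repressor that works with the corepressor CBFA2T3, read 10.45, 11.02 and 11.23 in the MDA-MB-231 control arrays, 9.86, 9.57 and 9.86 in the MDA-MB-231 miR-365a-3p arrays, 10.79 and 11.28 in the SKOV3 control arrays and 9.34, 8.98 and 9.48 in the SKOV3 miR-365a-3p arrays. ZNF652 fell, with a difference of -1.14 ± 0.22 in MDA-MB-231 (adjusted p = 0.00503) and of -1.77 ± 0.25 in SKOV3 (adjusted p = 0.00197). ZNF549 read 11.37, 11.46 and 11.86 in the MDA-MB-231 control arrays, 10.40, 10.30 and 10.50 in the MDA-MB-231 miR-365a-3p arrays, 11.43 and 11.84 in the SKOV3 control arrays and 10.01, 9.82 and 9.95 in the SKOV3 miR-365a-3p arrays. Its groups did not overlap, and ZNF549 fell, with a difference of -1.16 ± 0.14 (adjusted p = 0.000503) and -1.71 ± 0.16 (adjusted p = 0.000275). ZNF14 read 11.14, 11.09 and 12.06 in the MDA-MB-231 control arrays, 10.49, 10.32 and 10.39 in the MDA-MB-231 miR-365a-3p arrays, 11.61 and 12.14 in the SKOV3 control arrays and 10.14, 10.21 and 10.18 in the SKOV3 miR-365a-3p arrays. MDA-MB-231 control replicate 3 stood well above the other 2 in ZNF14, which fell, with a difference of -1.03 ± 0.24 (adjusted p = 0.0129) and -1.70 ± 0.27 (adjusted p = 0.00388). Its SKOV3 call was lost without SKOV3 control replicate 2 (adjusted p = 0.0518).

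The 10 falls with a mean above 9 (ZNF738, ZNF69, ZNF430, ZNF652, ZNF486, ZNF549, ZNF14, ZNF394, ZNF786 and ZNF682) mostly ordered the arrays alike in 3 of the 4 groups. Their differences ranged from -1.52 to -0.86 in MDA-MB-231 and from -2.12 to -1.53 in SKOV3, and all 10 were larger in SKOV3, although none was called for the difference of the 2 responses. The median of the 10 read 10.80, 11.05 and 11.55 in the MDA-MB-231 controls, 10.06, 9.80 and 10.08 with miR-365a-3p, 11.11 and 11.56 in the SKOV3 controls and 9.52, 9.43 and 9.72 with miR-365a-3p. ZNF394, a gene with SCAN and KRAB domains, fell, with differences of -1.11 ± 0.19 and -1.59 ± 0.21. Among the MDA-MB-231 miR-365a-3p arrays replicate 2 was the lowest in all 10 genes, and SKOV3 control replicate 1 was below replicate 2 in all 10. In the MDA-MB-231 controls, replicate 1 was the lowest in 8 and replicate 2 in 2. In the SKOV3 miR-365a-3p arrays they were not ordered alike, with replicate 1 lowest in 4 and replicate 2 in 6. Their median SD was 0.415 in the MDA-MB-231 controls, 0.161 with miR-365a-3p, 0.352 in the SKOV3 controls and 0.161 with miR-365a-3p. In the 13 genes that rose it was 0.0672, 0.0806, 0.0238 and 0.158 in the same order, nearly the same value in the last group. The cause was not tested. Genes of this class share long stretches of sequence, and since which probe gave each value was not stated, a value may hold signal of a paralog.

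**Figure D4:**
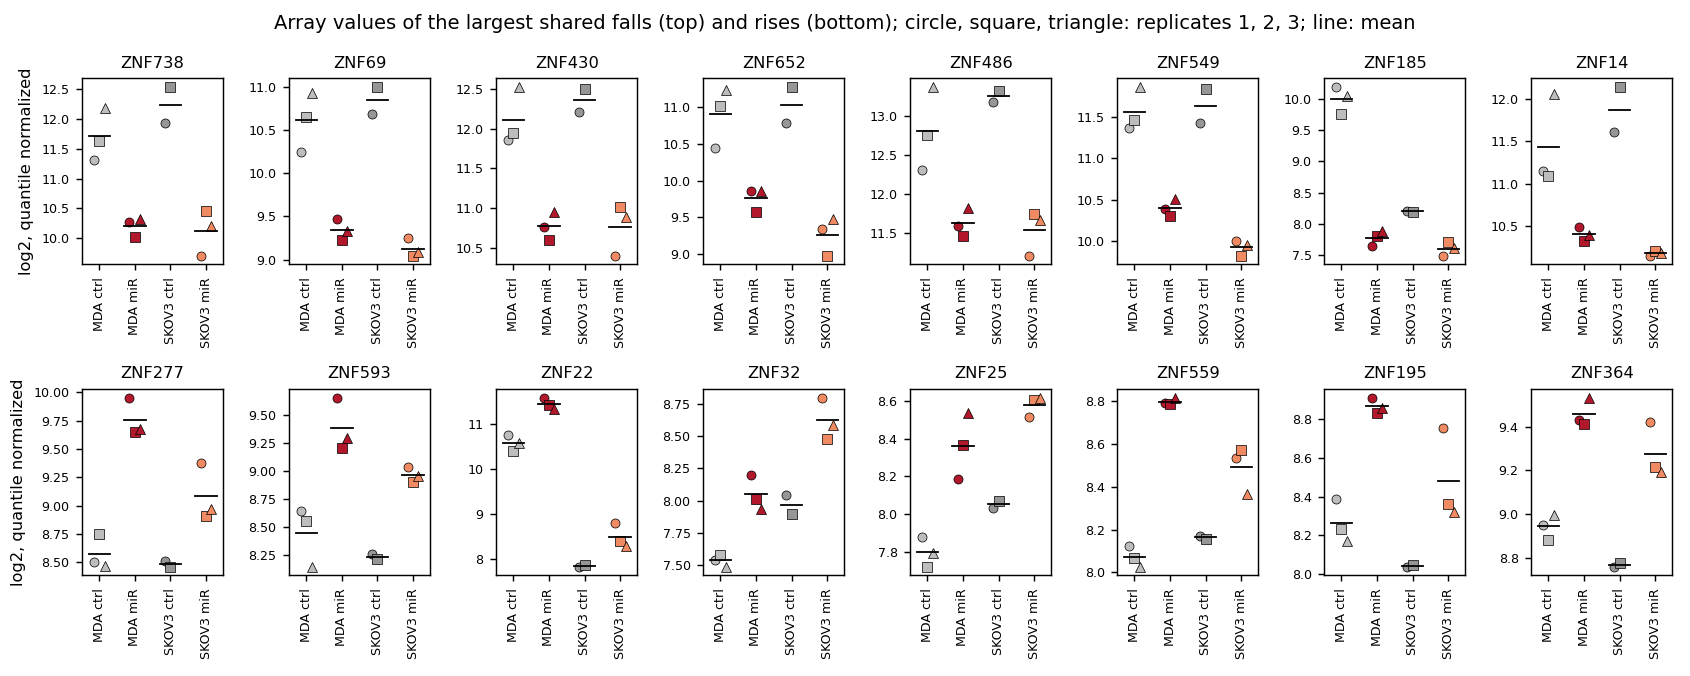
Quantile normalized log2 value of each array for the 8 largest shared falls (top row) and the 8 largest shared rises (bottom row), by group, with circle, square and triangle for replicates 1, 2 and 3 and a line at the group mean. Each panel has its own vertical scale. In all 16 genes the miR-365a-3p points lie on one side of the control points of their line, as the choice of these genes required. In the falls other than ZNF185 SKOV3 control replicate 1 lies below replicate 2.

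Other shared falls had a mean below 9 and a different course. ZNF185, a LIM domain protein of the actin cytoskeleton, read 10.20, 9.76 and 10.05 in the MDA-MB-231 control arrays, 7.64, 7.81 and 7.87 in the MDA-MB-231 miR-365a-3p arrays, 8.21 and 8.18 in the SKOV3 control arrays and 7.48, 7.70 and 7.61 in the SKOV3 miR-365a-3p arrays. It was highest in the MDA-MB-231 controls, and in that line the fall was the largest of any member, -2.23 ± 0.11 (adjusted p = 6.55e-06), beside -0.60 ± 0.12 in SKOV3 (adjusted p = 0.0123). The SKOV3 call was lost without SKOV3 control replicate 1 or 2. ZNF828 (CHAMP1), which works in chromosome alignment at mitosis, read 8.77, 8.88 and 9.19 in the MDA-MB-231 control arrays, 7.38, 7.33 and 7.37 in the MDA-MB-231 miR-365a-3p arrays, 8.33 and 8.39 in the SKOV3 control arrays and 7.34, 7.39 and 7.41 in the SKOV3 miR-365a-3p arrays. ZNF828 fell, with a difference of -1.59 ± 0.09 (adjusted p = 1.11e-05) and -0.98 ± 0.10 (adjusted p = 0.000401), and both miR-365a-3p groups ended close to the median row. ZNF317, a KRAB gene of chromosome 19 named, like ZNF828, after its values were seen, fell, with a difference of -0.93 ± 0.08 and -0.54 ± 0.09. In ZNF185, ZNF828 and ZNF317 the deposited group means exceeded 8 in both controls and in neither miR-365a-3p group. For ZNF185 they were 10.02 and 8.44 in the MDA-MB-231 and SKOV3 controls, and 7.61 and 7.57 with miR-365a-3p. These genes passed the cut through their controls, so their falls are not independent of the selection.

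Among members with a known role in cancer or chromatin, ZNF217, a repressor encoded in the 20q13 region amplified in breast cancers, read 8.73, 8.83 and 8.95 in the MDA-MB-231 control arrays, 7.56, 7.88 and 7.93 in the MDA-MB-231 miR-365a-3p arrays, 8.61 and 8.77 in the SKOV3 control arrays and 7.60, 8.12 and 8.14 in the SKOV3 miR-365a-3p arrays. All miR-365a-3p arrays were below the controls of their line. The deposited means of ZNF217 exceeded 8 only in the controls, so its fall is not independent of the selection. ZNF217 fell, with a difference of -1.04 ± 0.16 (adjusted p = 0.00132) and -0.73 ± 0.17 (adjusted p = 0.0232), and the SKOV3 call was lost without SKOV3 control replicate 1 or 2. ZNF207 (BuGZ), a microtubule and kinetochore protein, fell, with a difference of -0.86 ± 0.24 in MDA-MB-231 (adjusted p = 0.0266), a call lost without any 1 of 5 of the 6 MDA-MB-231 arrays, and differed by -0.75 ± 0.27 in SKOV3 (adjusted p = 0.108). ZNF281, which binds G-rich promoters and is linked to the epithelial to mesenchymal transition, differed by -0.69 ± 0.30 and -0.18 ± 0.34 and was called in neither line. ZNF148 (ZBP-89), another G-rich binder, differed by -0.60 ± 0.21 and -0.39 ± 0.23 and was not called after quantile normalization. On the deposited values ZNF148 was called lower in MDA-MB-231, at -0.92 (adjusted p = 0.0244), as in 6 of 18 alternatives.

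The differences of ZNF143, ZNF274, ZNF91 and ZNF638 were not called in either line after quantile normalization. ZNF143, an activator at many promoters and at chromatin loops, differed by 0.18 ± 0.08 and 0.23 ± 0.09, ZNF274, a KRAB protein that brings SETDB1 to zinc finger gene clusters, by 0.15 ± 0.06 and 0.21 ± 0.07, and ZNF91, a repressor of SVA and LINE-1 elements, by 0.33 ± 0.17 and 0.27 ± 0.19. On the deposited values both signs turned in ZNF143 and ZNF274, and ZNF274 was then called lower in MDA-MB-231, at -0.23 (adjusted p = 0.02). In ZNF91 the sign turned in MDA-MB-231 without a call. ZNF638, a nuclear matrix protein, differed by 0.08 ± 0.16 and -0.20 ± 0.18, and its sign in MDA-MB-231 turned on the deposited values.

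The shared rises ranged from 0.33 to 1.18, and the shared falls from -2.23 to -0.54. ZNF277, known to bind the ribosomal protein RPS2, read 8.50, 8.75 and 8.47 in the MDA-MB-231 control arrays, 9.95, 9.65 and 9.67 in the MDA-MB-231 miR-365a-3p arrays, 8.52 and 8.46 in the SKOV3 control arrays and 9.38, 8.91 and 8.97 in the SKOV3 miR-365a-3p arrays. It rose by 1.18 ± 0.14 in MDA-MB-231 (adjusted p = 0.000366) and by 0.60 ± 0.15 in SKOV3 (adjusted p = 0.0326), and the SKOV3 call was lost on the deposited values (adjusted p = 0.145) and without SKOV3 control replicate 1 or 2 or miR-365a-3p replicate 1. ZNF593, a small nucleolar protein of ribosome biogenesis, read 8.64, 8.55 and 8.14 in the MDA-MB-231 control arrays, 9.65, 9.20 and 9.30 in the MDA-MB-231 miR-365a-3p arrays, 8.26 and 8.21 in the SKOV3 control arrays and 9.03, 8.90 and 8.96 in the SKOV3 miR-365a-3p arrays. Its groups did not overlap, with a rise of 0.94 ± 0.14 (adjusted p = 0.00149) and 0.73 ± 0.16 (adjusted p = 0.0171). ZNF22 read 10.77, 10.41 and 10.58 in the MDA-MB-231 control arrays, 11.58, 11.43 and 11.33 in the MDA-MB-231 miR-365a-3p arrays, 7.84 and 7.89 in the SKOV3 control arrays and 8.80, 8.40 and 8.29 in the SKOV3 miR-365a-3p arrays. The rise in ZNF22 was 0.86 ± 0.14 (adjusted p = 0.00185) and 0.63 ± 0.15 (adjusted p = 0.0261), set on levels that differed widely between the lines. The SKOV3 calls of ZNF593 and ZNF22 were lost on the deposited values and without SKOV3 control replicate 1 or 2.

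Next by size were ZNF32, which rose by 0.51 ± 0.09 and 0.65 ± 0.10 and kept both calls on the deposited values, and ZNF25, which rose by 0.56 ± 0.08 and 0.52 ± 0.09 and lost both there and the SKOV3 call without SKOV3 control replicate 1. ZNF195 rose by 0.60 ± 0.11 and 0.44 ± 0.12, the latter with an adjusted p of 0.0401, a call lost on the deposited values, as was that in MDA-MB-231 (adjusted p = 0.0511), and without either SKOV3 control array or any of 5 MDA-MB-231 arrays (control replicates 2 and 3 and the 3 miR-365a-3p arrays). ZNF364 (RNF115), a RING ubiquitin ligase, read 8.95, 8.88 and 8.998 in the MDA-MB-231 control arrays, 9.43, 9.41 and 9.53 in the MDA-MB-231 miR-365a-3p arrays, 8.76 and 8.78 in the SKOV3 control arrays and 9.42, 9.21 and 9.19 in the SKOV3 miR-365a-3p arrays. It rose by 0.51 ± 0.06 (adjusted p = 0.000457) and 0.51 ± 0.07 (adjusted p = 0.00176), almost the same amount in both lines, and kept both calls on the deposited values. ZNF364 and ZNF32 were the 2 rises called in both lines under that setting. The deposited means of ZNF32 exceeded 8 only in SKOV3, at 8.19 in the controls and 8.59 with miR-365a-3p. The rise of ZNF32 helped it pass the cut, so it is not independent of the selection. ZNF259 (ZPR1), which binds the translation factor eEF1A and the EGF receptor, rose by 0.37 ± 0.06 and 0.52 ± 0.06 after quantile normalization, but by values not called on the deposited scale (0.03 and 0.24).

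The ribosome-linked members did not move as one. ZNF593 rose in both lines as given above. ZNF622, which matures the large ribosomal subunit, differed by -0.13 ± 0.16 and 0.01 ± 0.18 and was called in neither line. ZNF598, the ubiquitin ligase that marks collided ribosomes, fell, with a difference of -0.45 ± 0.11 in MDA-MB-231 (adjusted p = 0.0133), a call lost without MDA-MB-231 control replicate 3, and differed by -0.22 ± 0.12 in SKOV3 (adjusted p = 0.32). ZNF598 was called lower in SKOV3 as well on the deposited values, at -0.53 (adjusted p = 0.0405). ZNF330, a nucleolar protein, differed by 0.25 ± 0.09 in MDA-MB-231 (adjusted p = 0.0803) and rose by 0.45 ± 0.10 in SKOV3 (adjusted p = 0.0206), a call lost without SKOV3 control replicate 1 or 2. ZNF330 on the deposited values stood at 0.17 (adjusted p = 0.587) in SKOV3 and was not called.

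The highest member, ZNF674, read 13.68, 13.71 and 13.89 in the MDA-MB-231 control arrays, 12.91, 12.96 and 13.33 in the MDA-MB-231 miR-365a-3p arrays, 13.68 and 13.64 in the SKOV3 control arrays and 12.90, 13.41 and 13.20 in the SKOV3 miR-365a-3p arrays. ZNF674 fell, with a difference of -0.69 ± 0.14 in MDA-MB-231 (adjusted p = 0.00712) and differed by -0.49 ± 0.16 in SKOV3 (adjusted p = 0.0841). The MDA-MB-231 call was lost on the deposited values (adjusted p = 0.0555). At the cut itself, ZNF187 (ZSCAN26) rose by 0.43 ± 0.06 and 0.39 ± 0.07 and ZNF256 by 0.33 ± 0.09 and 0.55 ± 0.10, while of the rows just outside ZNF362 fell, with a difference of -0.38 ± 0.07 and -0.77 ± 0.07. ZNF576, also just outside, rose by 0.56 ± 0.10 in MDA-MB-231 (adjusted p = 0.00262) and differed by 0.31 ± 0.11 in SKOV3 (adjusted p = 0.0996), and the responses were not called different (adjusted p = 0.546). ZNF187 was called in neither line on the deposited values, at 0.095 (adjusted p = 0.464) and 0.11 (adjusted p = 0.497). There ZNF256 stood at 0.099 (adjusted p = 0.425) in MDA-MB-231, where 8 of 18 alternatives called it, and at 0.28 (adjusted p = 0.0475) in SKOV3. The ZNF576 call was also lost, at 0.22 (adjusted p = 0.0733). The deposited means of ZNF187 and ZNF256 exceeded 8 only in SKOV3. Their rises helped them pass the cut and are not independent of the selection.

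The 2 lines differed in response for 2 of the 85 members, against 2.54% of all rows and 4.12% of the other rows above 8 called for this contrast. ZNF185 fell further in MDA-MB-231 than in SKOV3, a difference of 1.63 ± 0.16 (SKOV3 minus MDA-MB-231, adjusted p = 0.00168). It passed the cut through its control groups, with a deposited mean of 10.02 in the MDA-MB-231 controls. This difference is thus not independent of the selection. ZNF559, a KRAB gene of chromosome 19, read 8.12, 8.07 and 8.03 in the MDA-MB-231 control arrays, 8.79, 8.79 and 8.82 in the MDA-MB-231 miR-365a-3p arrays, 8.17 and 8.16 in the SKOV3 control arrays and 8.53, 8.57 and 8.37 in the SKOV3 miR-365a-3p arrays. It rose in both lines, by 0.73 ± 0.05 (adjusted p = 2.88e-05) and 0.33 ± 0.06 (adjusted p = 0.00527), and the responses differed by -0.40 ± 0.07 (adjusted p = 0.0305). In SKOV3 the ZNF559 rise was not called on the deposited values, at 0.037 (adjusted p = 0.844), nor without SKOV3 control replicate 2. The ZNF185 difference was called when any 1 array was left out, with values of 1.53 to 1.76. The ZNF559 difference was not called on the deposited values (adjusted p = 0.158), and leaving out MDA-MB-231 control replicate 2 or 3, any MDA-MB-231 miR-365a-3p array or either SKOV3 control array gave adjusted p of 0.0638 to 0.139.

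The control groups of the 2 lines also differed. In SKOV3 controls 14 members (16.5%) were higher and 7 (8.24%) lower than in MDA-MB-231 controls, against 8.34% and 7.76% of all rows and 19.4% and 20.2% of the other rows above 8. Without SKOV3 control replicate 1 or 2, 7 or 8 were higher. ZNF323 (ZSCAN31) was higher in SKOV3 by 1.96 ± 0.11 (adjusted p = 6.47e-06), ZNF415 by 1.53 ± 0.11, ZNF358 by 1.45 ± 0.28 and ZNF83 by 1.40 ± 0.14. ZNF323 read 7.49 on average in the MDA-MB-231 controls, near the median row, and 9.45 in the SKOV3 controls. ZNF323 and ZNF415 passed the cut only through SKOV3, with deposited means of 7.53 and 7.51 in the MDA-MB-231 controls. Group means exceeded 8 only in SKOV3 in 10 members and only in MDA-MB-231 in 2. The selection thus shaped these counts and differences between controls, which are a description. ZNF22 was lower in SKOV3 (difference -2.72 ± 0.15, adjusted p = 7.32e-06), as were ZNF185 (-1.81 ± 0.12), ZNF23 (-0.75 ± 0.07) and ZNF259 (-0.70 ± 0.06). ZNF358 fell with miR-365a-3p in SKOV3, with a difference of -1.34 ± 0.28 (adjusted p = 0.0125), a call lost without SKOV3 control replicate 1 or 2, and differed by -0.71 ± 0.25 in MDA-MB-231 (adjusted p = 0.0672), where it was called lower on the deposited values, at -1.05 (adjusted p = 0.0282). ZNF323, ZNF415 and ZNF23 were called in neither line, and ZNF83 rose by 0.41 ± 0.12 in MDA-MB-231 (adjusted p = 0.0384), a call lost under the 3 other scalings. ZNF83 stood there at 0.37 after cyclic loess (adjusted p = 0.0895) and at 0.031 (adjusted p = 0.888) on the deposited values. The ZNF358 difference between controls was not called without SKOV3 control replicate 1 (adjusted p = 0.0709).

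On chromosome 19 lay 36 of the 85 members (42.4%), beside 5.27% of the other rows with a mean above 8. Their medians were -0.01 in MDA-MB-231 and 0.01 in SKOV3, with 9 lower and 10 higher and with 12 lower and 4 higher. These shares, 25% and 27.8% in MDA-MB-231 and 33.3% and 11.1% in SKOV3, stand beside 30.8% and 28.1% and then 22.5% and 11.3% of the 302 other rows above 8 on the chromosome. The 10 of them with a mean above 9 had medians of -1.10 and -1.65, with 7 and 8 called lower and none higher. The 11 members above 9 on other chromosomes had medians of -0.13 and 0.00. Of these, 5 (45.5%) were lower and 3 (27.3%) higher in MDA-MB-231, and 3 (27.3%) lower and 3 (27.3%) higher in SKOV3. ZNF652, ZNF394 and ZNF786 among them were called lower in both lines. The other rows with a mean above 9 had 23.2% lower and 40.7% higher, then 12.8% and 25.7%. ZNF14, ZNF682, ZNF486, ZNF430 and ZNF738 fell in both lines and lie within 17 consecutive protein-coding genes (RefSeq, GRCh38.p14), a stretch picked after the values were seen. The 10 other numbered rows of that stretch all had a mean below 8 (7.29 to 7.84), and none of them was called lower in either line. Some of these means lie close to the median row, 7.38, where there is little room to fall. Elsewhere on the chromosome some numbered rows below 8 were called lower in both lines, such as ZNF264 (mean 7.71) and ZNF160 (mean 7.68). The lack of lower calls in the stretch does not show that transcripts of these 10 rows were unaffected. Of these ZNF626 was called higher in both lines, by 0.29 (adjusted p = 0.0319) and 0.44 (adjusted p = 0.0146), and ZNF85 in MDA-MB-231, by 0.49 (adjusted p = 0.0118). Of 3 pairs of members that are direct neighbours, ZNF627 and ZNF823 were both above 0 in both lines (0.62 and 0.56 in MDA-MB-231), ZNF69 fell where its neighbour ZNF700 stood at 0.34 and 0.27, and ZNF274 and ZNF544 differed by 0.15 and -0.30 in MDA-MB-231.

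**Figure D5:**
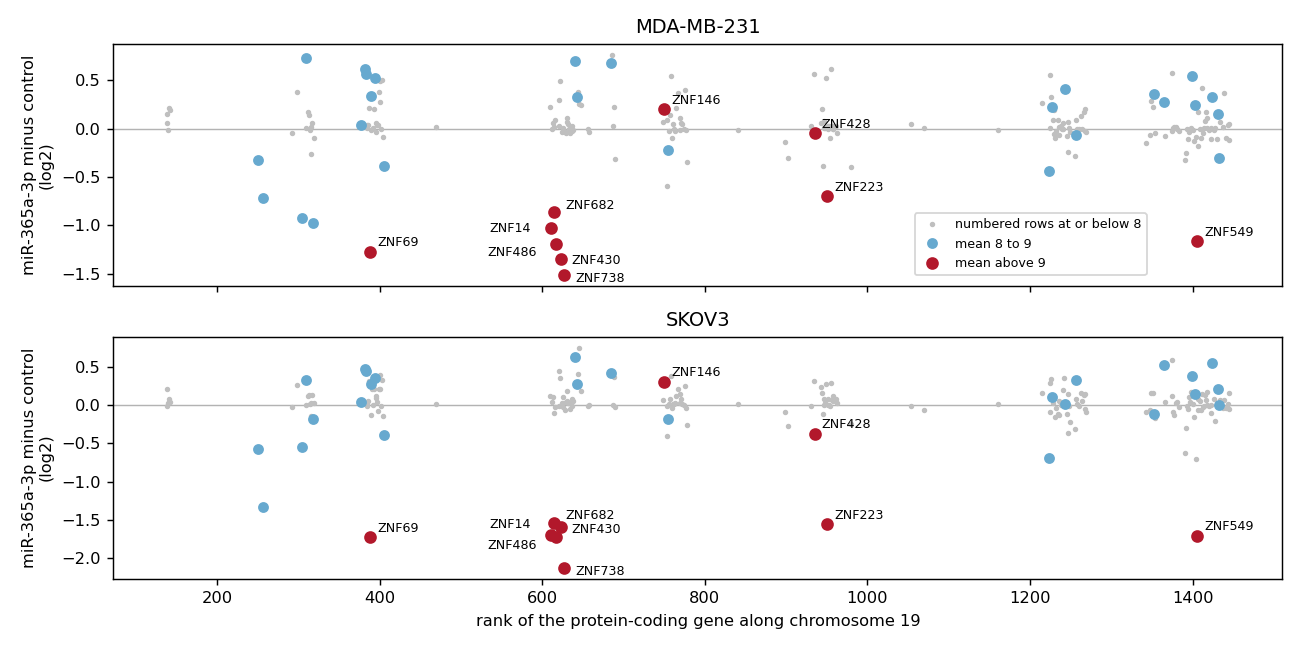
Log2 difference with miR-365a-3p of 225 numbered zinc finger rows by the rank of the gene along chromosome 19, in MDA-MB-231 (top) and SKOV3 (bottom), with the 36 members as large points. The members with a mean above 9 include ZNF14, ZNF682, ZNF486, ZNF430 and ZNF738 below 0 within 17 consecutive ranks, and the 10 rows at or below 8 between them lie from -0.03 to 0.49 in MDA-MB-231 and from -0.11 to 0.44 in SKOV3.

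The promoter windows, 300 bases around the gene start in RefSeq (GRCh38.p14), were searched on both strands for 4 motifs, and 73 of the 85 members had a window in the table used. The ETS core CCGGAAG was in 42.5% of them, beside 22.8% of the 4666 windows of other rows above 8 and 10.7% of all 27305. CCAAT was in 49.3%, beside 38.7% and 35.7%, the GC box GGGCGG in 71.2%, beside 71.8% and 44.6%, and TATAAA in 1.37%, beside 5.66% and 12%. No motif contains another, and a match is a run of letters, not a bound site. Of the 12 windows of genes lower in both lines 33.3% had the ETS core and 66.7% had CCAAT, and of the 11 windows of genes higher in both lines 63.6% and 63.6%. Windows are shown for ZNF69 (chr19:11887532-11887831, + strand) and ZNF277 (chr7:112206445-112206744, + strand), the shared fall and the shared rise of largest size with a RefSeq window, in GRCh38.p14. Capitals mark matches of the 4 motifs on either strand.
ZNF69: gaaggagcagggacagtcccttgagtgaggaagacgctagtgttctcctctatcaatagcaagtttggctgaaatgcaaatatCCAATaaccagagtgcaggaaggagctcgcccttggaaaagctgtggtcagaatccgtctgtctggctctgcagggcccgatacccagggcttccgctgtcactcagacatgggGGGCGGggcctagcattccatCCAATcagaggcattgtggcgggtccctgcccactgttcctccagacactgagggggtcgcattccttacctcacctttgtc
ZNF277: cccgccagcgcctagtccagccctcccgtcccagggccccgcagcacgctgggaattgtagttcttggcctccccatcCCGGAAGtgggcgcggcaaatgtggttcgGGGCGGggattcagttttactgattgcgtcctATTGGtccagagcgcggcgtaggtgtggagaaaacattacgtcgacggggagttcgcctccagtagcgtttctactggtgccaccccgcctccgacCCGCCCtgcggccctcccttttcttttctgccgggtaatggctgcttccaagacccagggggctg
The ZNF69 window held 2 CCAAT matches, 1 GC box and no ETS core. The ZNF277 window held 1 ETS core, 1 CCAAT match and 2 GC boxes.

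The partners through which KRAB proteins silence DNA were examined as a list of 32 rows. In MDA-MB-231 15 (46.9%) were lower and 4 (12.5%) higher, and in SKOV3 11 (34.4%) lower and 3 (9.38%) higher. The medians were -0.14 and -0.10. All rows had 11.7% and 14.4%, then 7.11% and 7.25%. Of the 17 listed rows with a mean above 8, 9 (52.9%) were lower and 4 (23.5%) higher in MDA-MB-231. In SKOV3 6 (35.3%) of the 17 were lower and 3 (17.6%) higher. The other rows above 8 had 26.7% and 38.5%, then 15.7% and 23.2%. TRIM28, the corepressor that KRAB domains bind, fell, with differences of -1.11 ± 0.13 (adjusted p = 0.000328) and -0.88 ± 0.14 (adjusted p = 0.00387). SETDB1 differed by -0.06 ± 0.05 in MDA-MB-231 (adjusted p = 0.561) and fell by 0.32 ± 0.06 in SKOV3 (adjusted p = 0.00701). CBX3, an HP1 protein, rose by 0.78 ± 0.09 and 0.63 ± 0.10. The HP1 genes CBX1 (-0.16 and 0.48) and CBX5 (0.33 and 0.34) were called in neither line. In both lines the largest fall of the list was that of DNMT1 (-3.45 and -2.01) and the largest rise that of PPHLN1 (1.05 and 0.81). Zinc finger genes named outside the rule, with ZFP, ZSCAN, ZKSCAN or ZBTB symbols and a mean above 8, numbered 14, of which 4 were lower and 5 higher in MDA-MB-231 and 2 lower and 3 higher in SKOV3, with medians of 0.07 and -0.12. These shares, 28.6% and 35.7%, then 14.3% and 21.4%, lay near those of the other rows above 8 given above. Of the 402 numbered rows at or below 8, 11.9% were lower and 16.7% higher in MDA-MB-231. In SKOV3 8.21% were lower and 8.71% higher. The 24043 other rows at or below 8 had 7.38% and 7.49%, then 4.62% and 2.67%. These 2 sets were not matched for level. The median mean was 7.51 over all numbered rows and 7.38 over all rows, which are wider than the 2 sets compared. Whether the shares differ between rows of like level was not tested.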

How the data were processed

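Total RNA of 11 samples of transfected cells was hybridised to HumanHT-12 BeadChips. The authors quantile normalized the arrays with lumi and deposited 1 value per gene symbol and array on a log2-like scale. Whether that scale is plain log2 or variance stabilised, how background was treated and how probes of a gene were joined are not given in the sources used here. The deposited columns did not share a distribution, so they were quantile normalized again over the 11 arrays. A limma 3.58.1 model (R 4.3.3) with 4 group means and eBayes was fitted to all 31325 rows, with Benjamini-Hochberg adjustment over all rows and a threshold of 0.05. It was tested on simulated data.

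Named genes were the 8 largest falls and 8 largest rises called in both lines without overlap, members called for the difference of responses, the 3 of highest mean, 2 rows on either side of the cut, the 4 largest control differences in each direction and genes of known role. The members and lists were chosen with earlier results of these data known. Symbols were matched to RefSeq (GRCh38.p14), where 76 members were current and 9 renamed. Groupings by protein features were not formed, because no protein table was used here. Alternatives changed the scaling, fit, filter, member rule and arrays. The number of arrays limits the precision.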

Additional observations from a re-analysis of the deposited data

Results flagged for a closer look

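The response to miR-365a-3p differed between the lines in 2 of the 85 numbered zinc finger genes by the test of the difference itself (limma). ZNF185, the LIM domain gene, differed by 1.63 on the log2 scale (SKOV3 minus MDA-MB-231, adjusted p = 0.00168), having fallen in all 3 MDA-MB-231 and all 3 SKOV3 miR-365a-3p arrays relative to the controls. The adjusted p was 0.0865 with the replicate number as a block. ZNF185 passed the cut through its control groups, so this difference is not independent of the selection. Its lower level in the SKOV3 controls also left less room to fall there. ZNF559 differed by -0.40 (adjusted p = 0.0305), and the adjusted p ranged from 0.0124 to 0.209 over its alternatives, 6 of 17 of which called it.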

How the results depend on the processing

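The counts and medians of the zinc finger genes moved with scaling. Counts in this section stand without the share of other rows under the same setting, so they show only how far the counts moved. On the deposited values 36 were lower and 8 higher in MDA-MB-231, 3 were higher in SKOV3, 26 were lower and 2 higher in both lines, 1 was called for the difference of responses, and the medians were -0.24 and -0.18. Median centring gave 36, 10, 4, 24, 3 and 1, with medians of -0.21 and -0.15. Of those with a mean above 9, 1 was higher in SKOV3 and 1 in both lines on the deposited values, after median centring and with each line alone. With each line alone, 8 of all members were higher in SKOV3 and 8 in both lines. With members above 9 only, 12 were lower and 3 higher in MDA-MB-231, 11 lower and 3 higher in SKOV3, 3 higher in both lines, 0 differed in response (2 for the 85), the medians were -0.86 and -1.53, and 1 was higher and 1 lower in SKOV3 controls. With every group above 8, a filter that the change itself helps decide, 12 were lower and 16 higher in MDA-MB-231, 12 lower in SKOV3, 1 differed in response, 6 were higher and 2 lower in SKOV3 controls, and the medians were 0.19 and 0.11. Over all 487 numbered rows the counts were 71 and 92, 53 and 49, 38 and 34 in both lines, 7 for the difference of responses, and 64 higher and 26 lower in SKOV3 controls. With current symbols only, a choice made after seeing the data, as were the fits above 9, the MDA-MB-231 median was -0.055.

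Leaving out 1 array gave 15 to 29 lower and 21 to 30 higher in MDA-MB-231, 10 to 22 and 4 to 19 in SKOV3, 10 to 19 and 4 to 17 in both lines, 1 to 7 for the difference of responses (7 without SKOV3 miR-365a-3p replicate 1), medians of 0.057 to 0.11 and -0.038 to 0.12, and 7 to 15 higher and 6 to 10 lower in SKOV3 controls. Above 9 the ranges were 10 to 13 and 3 to 3 in MDA-MB-231, 8 to 13 and 1 to 3 in SKOV3, and 8 to 11 and 1 to 3 in both lines. The cause was not tested.

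In deviations from the group mean, same-numbered control and miR-365a-3p arrays correlated at -0.12, 0.043 and 0.23 in MDA-MB-231. In SKOV3 they correlated at 0.040 and -0.072. Arrays of different number correlated at -0.47 to 0.35 in MDA-MB-231 and at -0.19 to 0.19 in SKOV3. With 2 SKOV3 controls the deviations mirror each other, so the SKOV3 values tell little about pairing. The numbers were not taken to pair the samples. With the replicate number as a block, which drops SKOV3 miR-365a-3p replicate 3, 18 members were lower and 27 higher in MDA-MB-231, 12 lower and 14 higher in SKOV3, 12 and 13 in both lines, and 1 differed in response. Under the block ZNF323 and ZNF622 were at 0.11 and -0.044 in SKOV3.

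Of 1522 alternative values of 38 named genes 1336 kept direction and call, 117 lost the call, 34 gained it and 35 changed sign. On the deposited values ZNF23 was at -0.24 in MDA-MB-231 and -0.045 in SKOV3, ZNF143 at -0.20 and -0.030, ZNF274 at -0.23 and -0.089, ZNF638, ZNF91 and ZNF330 at -0.30, -0.050 and -0.095 in MDA-MB-231, and ZNF83 and ZNF622 at -0.081 and -0.062 in SKOV3. After median centring ZNF23 was at -0.21 and -0.007057, ZNF274 at -0.20 and -0.051, ZNF143, ZNF638, ZNF91 and ZNF330 at -0.16, -0.27, -0.018 and -0.062 in MDA-MB-231, and ZNF83 and ZNF622 at -0.044 and -0.025 in SKOV3. Cyclic loess put ZNF83 at -0.013 and ZNF622 at -0.034 in SKOV3. Leaving out 1 array gave ranges in SKOV3 of -0.10 to 0.11 (ZNF323), -0.092 to 0.11 (ZNF83), -0.39 to 0.17 (ZNF281), -0.058 to 0.12 (ZNF622) and -0.42 to 0.015 (ZNF638), and of -0.23 to 0.046 for ZNF622 in MDA-MB-231.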
